A study of Mus musculus with 24 samples.

Results

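P19 cells given all-trans retinoic acid (ATRA) for 24 and 48 h were compared with P19 cells given BMS753 one time step later, for 48 and 72 h. P19 is a mouse embryonal carcinoma line, a tumour-derived stem cell line that differentiates when given retinoic acid, and BMS753 is an agonist selective for the retinoic acid receptor RARα. The arrays were chosen by their titles, which gave 4 of the 24 arrays of the series, in 2 pairs: ATRA 24 h with BMS753 48 h, and ATRA 48 h with BMS753 72 h. Both agents were given at 1 µM to cells grown as a monolayer on gelatine-coated plates, and 4 arrays of cells given ethanol (EtOH), which carry no time label, served as controls. The question was which genes still differ between the agents when the BMS753 course is allowed to be slower.

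Total RNA was hybridised to Affymetrix Mouse Gene 1.0 ST arrays, and every level below is a log2 intensity, so a difference of 1 is 2-fold. Each agent had 1 array at each time, so no agent and time has a replicate. The 2 pairs served as the repeats, n = 2 and 2, and the 4 EtOH arrays helped to estimate the spread. In each pair the agent and 24 further hours of treatment differ together and cannot be told apart. The labels do not say whether arrays came from separate cultures, so p-values measure a spread that may be technical. In bulk RNA, fewer cells of a type and less RNA per cell cannot be told apart.

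Retinoic acid enters the nucleus and binds the receptors RARα, RARβ and RARγ, which sit on DNA as partners of the RXR receptors. ATRA binds all of these RARs. Among the first genes that the bound receptors switch on are Rarb itself, the Hox genes nearest the start of each cluster, and the Cyp26 enzymes and Dhrs3, which lower the amount of retinoic acid. Wnt ligands signal through Frizzled receptors and β-catenin, and secreted proteins such as those made from Dkk1 and Frzb hold that signal back.

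Receptors of this kind bind pairs of half-sites set head to tail, and the promoters of 2 induced genes with such a pair are shown because one differs strongly between the agents and the other little. Direct repeats of the half-site AGGTCA, its variant AGTTCA, the variant GGGTCA and the variant GGTTCA, in any combination and with a spacer of 1, 2 or 5 bases, were searched on both strands in RefSeq promoter windows of GRCm38.p6, each running from 250 bases before to 50 after a gene's start. Capitals mark the repeat. The Cyp26a1 window is chr19:37697558-37697857 on the plus strand, with the repeat on the minus strand, and the Rarb window is chr14:16575427-16575726 on the minus strand, with the repeat on the gene's own strand. Both repeats have a spacer of 5 bases.
Cyp26a1: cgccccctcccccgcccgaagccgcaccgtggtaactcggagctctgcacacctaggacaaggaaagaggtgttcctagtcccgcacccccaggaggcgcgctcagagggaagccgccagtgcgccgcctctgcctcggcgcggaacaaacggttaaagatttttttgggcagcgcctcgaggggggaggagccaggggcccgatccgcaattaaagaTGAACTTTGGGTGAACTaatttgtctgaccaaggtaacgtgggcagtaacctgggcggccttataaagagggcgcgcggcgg
Rarb: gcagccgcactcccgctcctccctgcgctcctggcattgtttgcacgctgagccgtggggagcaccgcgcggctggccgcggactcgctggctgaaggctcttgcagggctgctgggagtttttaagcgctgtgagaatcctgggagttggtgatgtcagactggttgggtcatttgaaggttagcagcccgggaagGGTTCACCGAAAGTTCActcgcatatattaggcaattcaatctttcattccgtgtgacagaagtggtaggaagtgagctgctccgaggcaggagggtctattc
Such a repeat with any of these spacers was found in 0.5875% of all 32851 windows, and one with a spacer of 5 in 0.09741%. Of 369 named or listed genes with a window, 3 held one, the third being Bco1, beside 0.6883% of all 27025 genes with a window. Of the 15 genes named below as most higher with ATRA, 12 had a window and 1 held a repeat (Cyp26a1), and of the 15 most lower, 8 had a window and 0 held one. A match is a description of letters, not a measured site.

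The whole expression profile placed ATRA 24 h and ATRA 48 h differently along the BMS753 course. Over all 19938 genes, the root mean square difference of ATRA 24 h was 0.256 from BMS753 24 h, 0.286 from BMS753 48 h and 0.440 from BMS753 72 h. ATRA 48 h lay 0.548 from BMS753 24 h, 0.393 from BMS753 48 h and 0.288 from BMS753 72 h, so its nearest BMS753 array was one step later. The nearest BMS753 array to ATRA 24 h was at its own time. Pairs of EtOH arrays lay 0.0943 to 0.144 apart, closer than any pair of ATRA and BMS753 arrays named here. ATRA 72 h, which has no BMS753 array one step later, lay 0.467 from BMS753 72 h. The embryonal carcinoma markers Pou5f1 (which encodes Oct4) and Sox2 were bright in EtOH arrays, at 12.85 to 12.99 and 11.50 to 11.56.

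**Figure D1:**
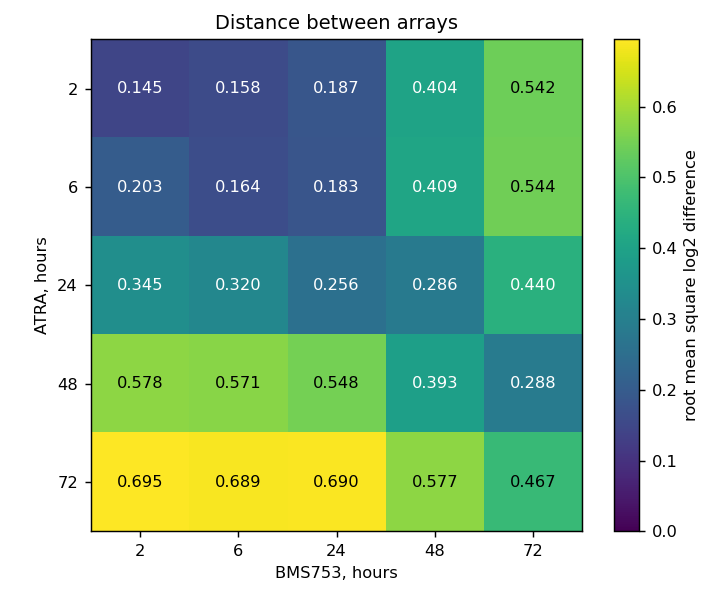
Root mean square log2 difference over 19938 genes between each ATRA array (rows, hours) and each BMS753 array (columns, hours), with the value printed in each cell. ATRA 24 h is nearest to BMS753 24 h (0.256) and ATRA 48 h is nearest to BMS753 72 h (0.288).

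Of 19938 genes, limma called 707 higher (3.55%) and 846 lower (4.24%) with ATRA than with BMS753 one step later, at a Benjamini-Hochberg adjusted p under 0.05. Of these 1553 genes, 134 (0.672% of all genes) differed at least 2-fold, 57 higher and 77 lower. The same ATRA arrays set against BMS753 at equal times gave 423 genes higher (2.12%) and 770 lower (3.86%). These comparisons share 3 of their 4 treated arrays, the ATRA pair and BMS753 48 h. Called in both with the same sign were 377 genes, 147 higher and 230 lower, which is 31.6% of the genes called at equal times and 24.3% of those called one step later. Another 37 genes were called in both with opposite signs.

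Of the genes called at equal times, 779 were not called one step later, and 506 closed to within 0.25 on average and 0.5 in each pair (log2), 144 of them higher and 362 lower with ATRA at equal times. What separates these comparisons is the course of BMS753 alone, from 24 to 72 h, since the ATRA arrays and BMS753 48 h are the same. The difference of BMS753 72 h from BMS753 24 h, tested with the spread of the EtOH arrays, was called in 5473 genes (27.5%), 2650 higher and 2823 lower at 72 h. It was called in 681 of the 779, which were themselves picked through the BMS753 24 and 72 h arrays, so that count is a description. The 2 pairs one step later share no array. They gave differences of the same sign in 61.2% of genes, with a correlation of 0.34 across genes, which are not independent replicates. A difference between the pairs beyond 2-fold was called in 87 genes (0.436%). The count of 1553 was 886 without EtOH replicate 3, 847 without EtOH replicate 4, 2831 without the first pair and 2633 without the second. With no term for the pair it was 85, and with only the 4 arrays, which leave 1 residual degree of freedom, limma called 0 genes, with 2150 at an unadjusted p under 0.05. The larger side also changed, to 747 higher and 721 lower after quantile normalization again and to 44 higher and 41 lower with no pair term. Of 122 called genes examined singly, 106 lost their call with no pair term.

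**Figure D2:**
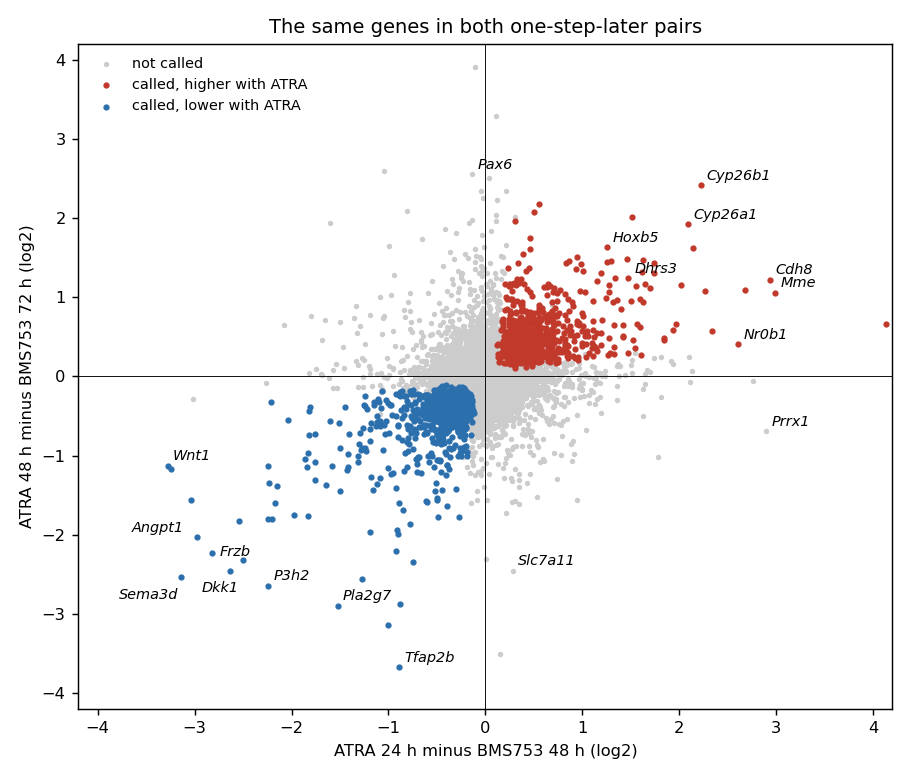
Each point is 1 of 19938 genes, with the ATRA 24 h minus BMS753 48 h difference on the x axis and the ATRA 48 h minus BMS753 72 h difference on the y axis (both log2). Cyp26b1 lies at 2.22 and 2.41, Dkk1 at −2.63 and −2.46, and Pax6, which was not called, at −0.13 and 2.56.

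Genes that clear retinoic acid stayed higher with ATRA one step later. Of the 4 measured genes of this list, 3 were higher and 0 lower, 75.0% in all beside 7.79% of all genes. The share called in each list below is to be read beside that 7.79%. List counts at equal times are to be read beside 2.12% of all genes higher and 3.86% lower. The list's median difference was 1.74, beside 0.0069 over all genes. Cyp26b1, a retinoic acid hydroxylase, stood at 9.41 and 10.43 with ATRA at 24 and 48 h, against 7.18 and 8.01 with BMS753 at 48 and 72 h, and at 6.81 to 7.08 in EtOH. Both ATRA values lay above every BMS753 value of the whole course, and the BMS753 48 h value lay just above the highest EtOH array. The difference was 2.32 ± 0.10 (SE), 4.99-fold, with a limma adjusted p = 1.45e-05, and at equal times it was 2.45.

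Cyp26a1, a second hydroxylase of the same family, stood at 11.00 and 10.21 with ATRA, against 8.91 and 8.29 with BMS753 and 6.05 to 6.50 in EtOH. Here BMS753 was also well above EtOH, so the genes differ in how far the RARα agonist moved them. Cyp26a1 differed by 2.01 ± 0.14 (adjusted p = 1.03e-04, limma). Dhrs3, which reduces retinal back to retinol, stood at 11.57 and 11.76 with ATRA, against 10.10 and 10.27 with BMS753 and 8.71 to 8.81 in EtOH, a difference of 1.48 ± 0.06 (limma adjusted p = 1.39e-05). At BMS753 24 h Dhrs3 was 10.91, so its BMS753 level fell by 0.64 between 24 and 72 h (adjusted p = 1.72e-05, EtOH spread, limma). Cyp26c1, the remaining family member, did not pass the test and stood between 6.15 and 6.44 in all of these arrays. These 3 calls held whichever EtOH array was left out, and in each pair all 3 genes were higher with ATRA.

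Other parts of the retinoid pathway differed less. Of 14 measured genes of synthesis, uptake and binding, 1 was higher and 1 lower, 14.3% in all beside 7.79% of all genes. Aldh1a2, which makes retinoic acid from retinal, stood at 5.52 and 6.28 with ATRA, against 6.43 and 8.22 with BMS753 and 5.14 to 5.31 in EtOH, a difference of −1.42 ± 0.19 (limma adjusted p = 0.00301). Rbp4, the plasma retinol carrier, was higher by 0.50 ± 0.11, a call lost without EtOH replicate 3 or 4 or without the first pair. Crabp2, a retinoic acid-binding protein, was bright in all 4 arrays, at 11.80 and 12.28 with ATRA and 11.86 and 12.11 with BMS753, a difference of 0.06 that did not pass the test. Stra6, a retinol transporter, was called higher with ATRA at equal times (1.28) and stood at −0.09 one step later.

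Of 6 receptor genes, 2 were higher and 1 lower, beside 7.79% of all genes called in either direction. Rarb, whose promoter is shown above, stood at 11.62 and 11.66 with ATRA, against 11.24 and 11.24 with BMS753 and 6.89 to 7.06 in EtOH. Both agents were far above EtOH, and the difference between them was 0.40 ± 0.08 (limma adjusted p = 0.0156). Rarg, the gene of RARγ, differed by 0.33 ± 0.07 and Rxra, the gene of the partner receptor RXRα, by −0.46 ± 0.11. Rara, the gene of the receptor that BMS753 selects, differed by 0.32 ± 0.10 and did not pass the test (limma adjusted p = 0.0996). The call of Rxra was lost whichever EtOH array was left out, or without the first pair, and that of Rarg without EtOH replicate 3 or 4.

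**Figure D3:**
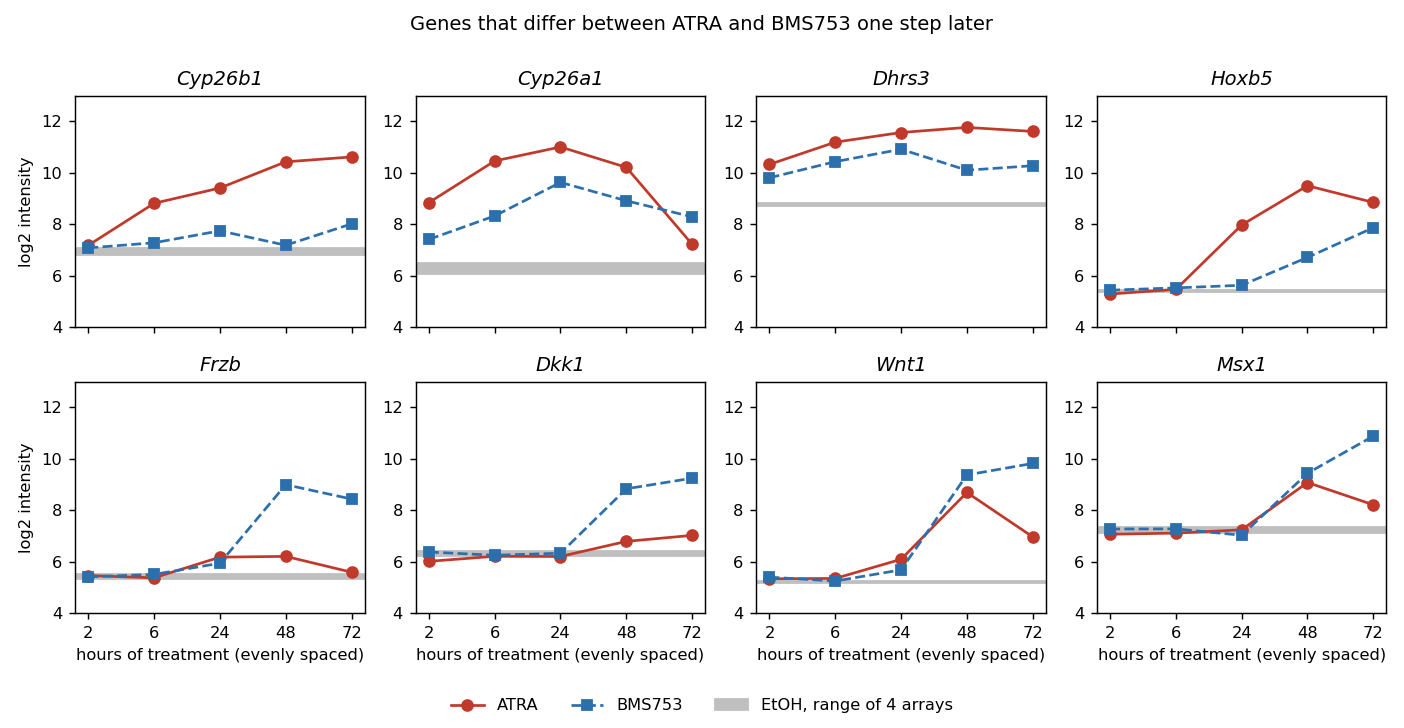
Log2 intensity of 8 genes over hours of treatment (evenly spaced on the axis) with ATRA (circles, solid) and BMS753 (squares, dashed), 1 array per point, with the range of 4 EtOH arrays as a grey band. Cyp26b1 reaches 10.43 with ATRA at 48 h and 8.01 with BMS753 at 72 h, while Dkk1 reaches 6.79 with ATRA at 48 h and 9.24 with BMS753 at 72 h.

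Hox genes of the front groups were higher with ATRA even one step later, with smaller differences than at equal times. These transcription factors set position along the body axis, and the genes of groups 1 to 5 pattern the hindbrain and neck. Of 14 measured genes of groups 1 to 5, 8 were higher, 1 lower and 5 not called, 64.3% called in all, with a median of 0.60. At equal times 11 were higher and 0 lower, with a median of 1.28. Hoxb5 stood at 7.97 and 9.50 with ATRA, against 6.71 and 7.87 with BMS753 and 5.39 to 5.44 in EtOH. ATRA at 24 h and BMS753 at 72 h were close, and the difference within pairs was 1.45 ± 0.10 (limma adjusted p = 9.03e-05), against 2.56 at equal times.

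Hoxa5 stood at 9.91 and 10.97 with ATRA, against 9.08 and 9.54 with BMS753 and 5.46 to 5.73 in EtOH, a difference of 1.13 ± 0.14 (limma adjusted p = 0.00196). Hoxb4, Hoxc4, Hoxb3, Hoxd4 and Hoxa4 were higher by 0.68 to 0.95 and Hoxb1 by 0.37. Hoxb2 and Hoxc5 were called higher at equal times, by 1.32 and 3.13, and did not pass one step later, at 0.13 and 0.52. Hoxd1 went the other way, with 7.12 and 7.06 with ATRA, against 7.63 and 8.41 with BMS753 and 6.65 to 6.81 in EtOH, a difference of −0.93 ± 0.16 (limma adjusted p = 0.0107). The count of 8 higher fell to 3 without EtOH replicate 1 or 2 and to 2 without EtOH replicate 3 or 4. Hoxb5 and Hoxa5 kept their calls in each of these fits. With no pair term all 8 calls were lost, those of Hoxb5 and Hoxa5 among them. Without the first pair the calls of Hoxb1, Hoxb4 and Hoxc4 were lost, and without the second those of Hoxb3 and Hoxd4.

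Of 23 measured genes of Hox groups 6 to 13, which pattern the trunk, 3 were higher and 0 lower. Over all genes 7.79% were called in either direction. Hoxb9 stood at 9.49 and 10.30 with ATRA, against 8.75 and 9.34 with BMS753 and 7.55 to 7.67 in EtOH, a difference of 0.85 ± 0.08 (limma adjusted p = 5.32e-04). Hoxb6 and Hoxa6 were higher by 0.76 and 0.63. With no pair term the calls of Hoxb9, Hoxb6 and Hoxa6 were lost. The call of Hoxa6 was lost whichever EtOH array was left out, or without the second pair. Meis1, Meis2 and Meis3, TALE homeobox partners of Hox proteins, did not pass one step later (−0.12, 0.03 and −0.07), and of the 13 genes of that list 0 were called in either direction (limma), or 1 lower after quantile normalization again, against 2 higher at equal times.

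The other genes most higher with ATRA came from many functions. The largest after Cyp26b1 was Cdh8, a cadherin of neurons, with 9.35 and 7.43 with ATRA, against 6.42 and 6.21 with BMS753 and 6.44 to 6.68 in EtOH, a difference of 2.08 ± 0.30 (limma adjusted p = 0.00457). Both BMS753 values lay below the EtOH range. Mme, which encodes the peptidase neprilysin, stood at 10.31 and 9.34 with ATRA, against 7.32 and 8.28 with BMS753 and 8.22 to 8.40 in EtOH. The pairs of Mme differed from each other (2.99 and 1.06). Ebf1, a transcription factor of differentiating neurons, stood at 7.94 and 7.38 with ATRA, against 5.80 and 5.76 with BMS753 and 7.28 to 7.51 in EtOH, a difference of 1.88 ± 0.13. Its difference thus came with a low BMS753 level, whereas ATRA 48 h was inside the EtOH range. Gca, a calcium-binding protein, was below the EtOH range in all 4 arrays, at 9.42 and 8.31 with ATRA, against 7.68 and 7.01 with BMS753 and 10.08 to 10.15 in EtOH.

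Gbx2, a homeobox gene of the anterior hindbrain, stood at 10.83 and 10.01 with ATRA, against 9.09 and 8.57 with BMS753 and 6.90 to 7.09 in EtOH, a difference of 1.59 ± 0.09 (limma adjusted p = 4.73e-05). Stra8, a retinoic acid-induced gene of germ cells entering meiosis, was higher by 1.67 ± 0.22, and Ap3b2, a neuronal adaptor subunit, by 1.76 ± 0.13. The remaining genes named by size were Raet1d (1.88), Ptges, a prostaglandin E synthase (1.58), Ephx2, an epoxide hydrolase (1.55), and Gria3, an AMPA receptor subunit (1.46). Raet1d belongs to a family of near-identical copies whose probes may not tell them apart. Of the 15 genes named as most higher, 12 had both ATRA arrays above every BMS753 array of the course. At equal times 12 were also called (all but Ebf1, Ephx2 and Gca), and 14 were above the EtOH range with ATRA at 24 h. The genes were chosen through the same ATRA arrays, so such counts are a description. With robust variance moderation Mme and Raet1d lost their calls. With no pair term Mme and Raet1d also lost them, as did Cdh8, Stra8, Gbx2, Ptges, Ephx2, Gca and Gria3.

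The genes most lower with ATRA were mostly genes that BMS753 raised after 24 h. Of the 15 named, 13 were called higher at BMS753 72 h than at BMS753 24 h, beside 2650 of all 19938 genes. In 13 both BMS753 arrays lay above every ATRA array of the course. Only Angpt1, Shisa6, Pla2g7 and Fst were also called at equal times. The 15 were chosen for high values in the same BMS753 arrays, so such counts are a description. Sema3d, a secreted guidance protein, stood at 6.60 and 7.85 with ATRA, against 9.74 and 10.39 with BMS753 and 6.31 to 6.78 in EtOH. The difference was −2.84 ± 0.17, or 7.16-fold lower (limma adjusted p = 4.73e-05), the largest of the 15.

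Secreted Wnt antagonists were among them. Dkk1 stood at 6.20 and 6.79 with ATRA, against 8.83 and 9.24 with BMS753 and 6.20 to 6.40 in EtOH. ATRA at 24 h was within the EtOH range, and both BMS753 values were far above it. The difference was −2.54 ± 0.09 (limma adjusted p = 1.26e-05), and at BMS753 24 h the level was 6.33. Frzb stood at 6.17 and 6.21 with ATRA, against 8.99 and 8.43 with BMS753 and 5.34 to 5.52 in EtOH, a difference of −2.52 ± 0.13 (limma adjusted p = 2.39e-05). Of 14 measured antagonist genes, 3 were lower and 1 higher, 28.6% in all. The others called were Notum, a lipase that inactivates Wnt ligands (−0.69 ± 0.13), and Sfrp1 (0.61 ± 0.07). The call of Notum was lost without the second pair.

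Ligands, receptors and targets of the pathway also included genes lower with ATRA. Of 19 ligand genes, 4 were lower and 0 higher, 21.1% in all beside 7.79% of all genes. Wnt1, a ligand of the dorsal neural tube, stood at 6.09 and 8.69 with ATRA, against 9.37 and 9.82 with BMS753 and 5.16 to 5.24 in EtOH, so both agents were above EtOH. Its difference was −2.20 ± 0.37 (limma adjusted p = 0.00859), with pairs of −3.28 and −1.13 that differed from each other, and its call was lost with robust moderation. The other ligand genes called were Wnt8a (−1.24 ± 0.19), Wnt3 (−0.84 ± 0.13) and Wnt10b (−0.45 ± 0.08).

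Of 22 genes of the receptor and co-receptor list, which also holds the secreted Rspo3, 6 were lower and 2 higher, 36.4% in all. Fzd10, a Frizzled receptor, stood at 7.25 and 7.86 with ATRA, against 9.49 and 9.67 with BMS753 and 7.39 to 7.49 in EtOH, a difference of −2.03 ± 0.10 (limma adjusted p = 2.21e-05). Rspo3, a secreted enhancer of Wnt signalling, stood at 5.91 and 6.59 with ATRA, against 7.67 and 7.89 with BMS753 and 6.30 to 6.62 in EtOH. Its difference was −1.53 ± 0.13, and Fzd4 was the highest of the list with ATRA, at 1.11 ± 0.18. The count of 6 lower was 4 to 5 without single EtOH arrays and 2 with no pair term.

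Of 20 effector and feedback genes, 4 were lower and 1 higher, 25.0% in all. Axin2, a feedback inhibitor that β-catenin switches on, stood at 7.29 and 8.36 with ATRA, against 8.79 and 9.81 with BMS753 and 6.91 to 7.25 in EtOH. The difference was −1.47 ± 0.11 (limma adjusted p = 1.43e-04), against −0.08 at equal times. Nkd1, another feedback inhibitor, differed by −1.09 ± 0.18, Lef1, a DNA-binding partner of β-catenin, by −0.88 ± 0.10 and Znrf3, which removes Frizzled receptors, by −0.45 ± 0.08. Tcf7l1, a repressor of Wnt targets, was higher by 0.38 ± 0.07. Lef1 was also called at equal times (−0.93), and its ATRA levels of 6.83 and 6.78 lay below the EtOH range of 7.70 to 7.87. The 4 lower effector genes and the 4 lower ligand genes kept their counts whichever EtOH array was left out. With no pair term the calls of all 4 ligand genes were lost, and those of Axin2, Nkd1 and Znrf3.

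Some genes of the neural crest and neural plate border were lower with ATRA. Of 19 measured, 6 were lower, 1 higher and 12 not called, 36.8% called in all, with a list median of −0.25. At equal times 1 was lower and 2 higher, with a median of 0.04. Msx1, a homeobox gene of the border, stood at 7.24 and 9.08 with ATRA, against 9.44 and 10.88 with BMS753 and 7.10 to 7.34 in EtOH, pairs of −2.20 and −1.80 (limma adjusted p = 4.60e-05). Msx2 differed by −1.24 ± 0.09. Tfap2b, a crest transcription factor, stood at 5.29 and 6.18 with ATRA, against 6.18 and 9.85 with BMS753 and 5.09 to 5.30 in EtOH. Its difference of −2.28 ± 0.47 (limma adjusted p = 0.0212) held pairs of −0.89 and −3.67, and the BMS753 72 h array stood apart. Twist1, Tfap2a and Prrx2 differed by −1.13, −0.76 and −0.66, and Erbb3 by 0.71. The count of 6 lower was 4 without EtOH replicate 1, 2 or 3 and 3 without EtOH replicate 4 or with robust moderation. With no pair term all 6 of these calls were lost, that of Msx1 among them, and so was that of Erbb3. Tfap2b and Prrx2 lost their calls whichever EtOH array was left out, Twist1 without EtOH replicate 4 and Prrx2 without the first pair. The mean level of the list was 6.83 and 7.11 with ATRA, against 7.06 and 7.69 with BMS753 and 6.56 to 6.61 in EtOH, and the part of such cells in the Wnt and BMP results was not tested.

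Pax3, a transcription factor of the dorsal neural tube and crest, stood at 6.77 and 8.53 with ATRA, against 8.92 and 9.92 with BMS753 and 5.74 to 5.77 in EtOH, a difference of −1.77 ± 0.15 (limma adjusted p = 2.57e-04). It is 1 of 5 genes lower among 38 neural progenitor genes, of which 3 were higher, 21.1% called in all. The others lower were Lfng (−0.87), the Notch ligand gene Dll1 (−0.76), Zic1 (−0.69) and Sox1 (−0.48), and those higher were Gbx2, Neurod1 (0.42) and Sox3 (0.31). Pax6, a factor of neural progenitors, was called at equal times (2.19) and not one step later (1.21 ± 0.46, limma adjusted p = 0.15). It stood at 8.97 and 11.38 with ATRA, against 9.11 and 8.82 with BMS753 and 5.88 to 6.18 in EtOH, so only the second pair differed. The count of 3 higher was 1 whichever EtOH array was left out, and that of 5 lower was 3 without EtOH replicate 3. Neurod1 and Sox3 were the calls lost whichever EtOH array was left out, and both were lost without the second pair. Dll1 lost its call without EtOH replicate 3 and Sox1 without EtOH replicate 3 or 4, and both without the first pair. With no pair term every one-step-later neural progenitor call named here was lost, that of Pax3 among them.

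BMP and TGF-β genes, secreted signals that include inducers of dorsal fates, had 5 lower and 1 higher of 25, 24.0% in all. Their median was −0.21, and at equal times 1 was lower and 5 higher. Bmp4, a ligand, stood at 7.74 and 9.69 with ATRA, against 9.39 and 11.07 with BMS753 and 7.89 to 8.14 in EtOH, a difference of −1.51 ± 0.10 (limma adjusted p = 9.16e-05). Fst, which encodes the activin antagonist follistatin, stood at 8.14 and 8.39 with ATRA, against 11.38 and 9.56 with BMS753 and 9.03 to 9.39 in EtOH. ATRA was below the EtOH range and BMS753 above it, with pairs of −3.24 and −1.17 that differed from each other. Its difference was −2.20 ± 0.36 (limma adjusted p = 0.0082), a call lost with robust moderation. Grem1, a BMP antagonist, differed by −1.27 ± 0.16, Bambi, a pseudoreceptor, by −0.50 and Tgfb2 by −0.42, while Tgfb3 was higher by 0.43. The call of Tgfb2 was lost without EtOH replicate 3 or without the first pair. With no pair term the calls of Bmp4, Fst, Grem1, Bambi, Tgfb2 and Tgfb3 were all lost.

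The remaining genes named as most lower included some that stood below EtOH with ATRA. Angpt1, a ligand of the Tie2 receptor, stood at 5.91 and 5.72 with ATRA, against 8.88 and 7.75 with BMS753 and 7.11 to 7.48 in EtOH, a difference of −2.50 ± 0.20 (limma adjusted p = 2.24e-04). Pla2g7, a secreted phospholipase, stood at 9.94 and 7.9995 with ATRA, against 11.46 and 10.90 with BMS753 and 11.25 to 11.35 in EtOH, a difference of −2.21 ± 0.23. Mogat2, an acyltransferase of fat synthesis, differed by −1.92 ± 0.22. P3h2, a prolyl hydroxylase of collagen, stood at 8.21 and 7.97 with ATRA, against 10.45 and 10.61 with BMS753 and 7.74 to 7.91 in EtOH, a difference of −2.45 ± 0.10 (limma adjusted p = 1.39e-05). Cdh11, a mesenchymal cadherin, differed by −2.41 ± 0.11, Shisa6, an AMPA receptor auxiliary protein, by −2.30 ± 0.26, Minar2 by −2.18 ± 0.16 and Grm8, a glutamate receptor, by −1.89 ± 0.12. All 4 EtOH values of Cdh11 lay between 6.14 and 6.45, with ATRA at 6.43 and 6.87 and BMS753 at 8.93 and 9.20.

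**Figure D4:**
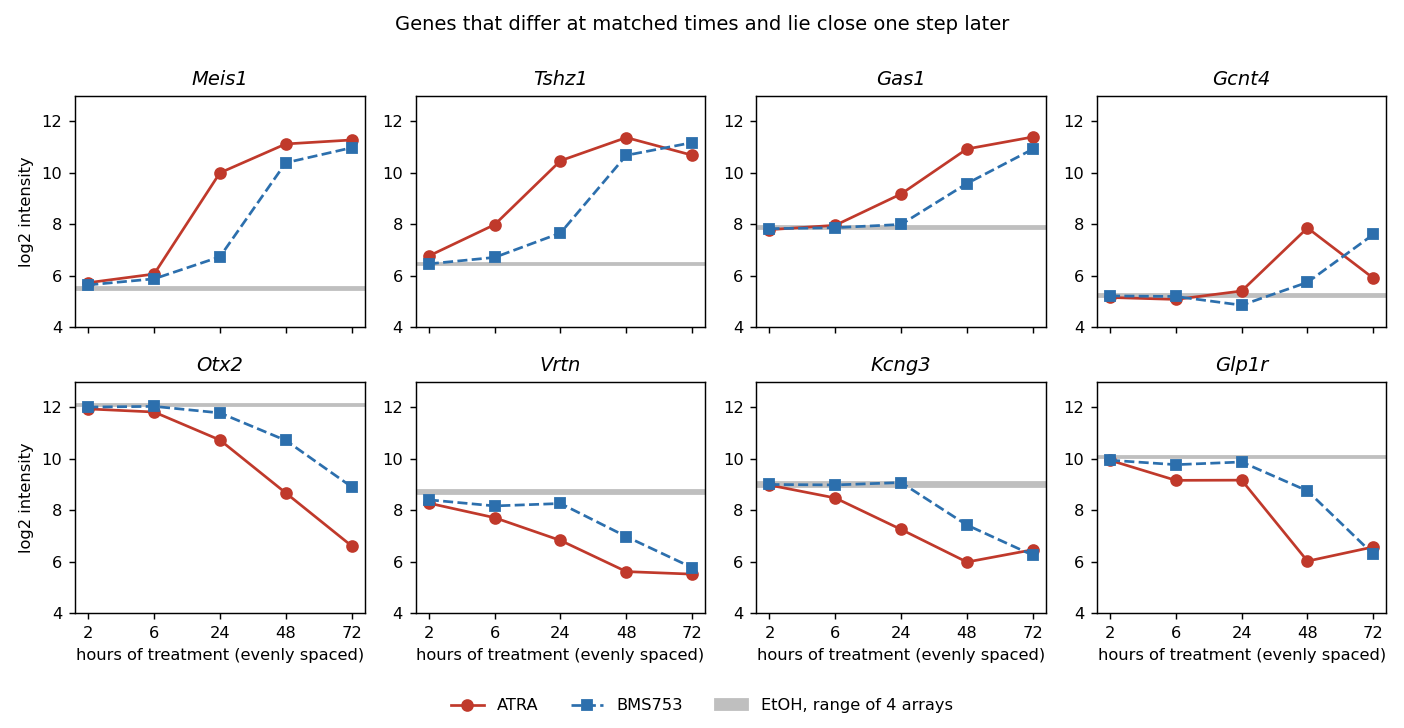
Log2 intensity of 8 genes called at equal times whose values lie close one step later, over hours of treatment (evenly spaced on the axis) with ATRA (circles, solid) and BMS753 (squares, dashed), 1 array per point, with the range of 4 EtOH arrays as a grey band. Meis1 is 10.00 with ATRA at 24 h and 10.39 with BMS753 at 48 h, and Otx2 is 8.67 with ATRA at 48 h and 8.91 with BMS753 at 72 h.

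Genes that closed their gap one step later included homeobox genes and genes of the undifferentiated state. Their closeness one step later was part of how they were chosen and is given as a description. Meis1 stood at 10.00 and 11.12 with ATRA, against 10.39 and 10.97 with BMS753 one step later and 5.43 to 5.58 in EtOH, whereas at BMS753 24 h it was 6.73. Tshz1, a zinc finger homeobox gene, stood at 10.47 and 11.37 with ATRA, against 10.68 and 11.17 with BMS753 one step later and 7.66 at BMS753 24 h. Gas1, a hedgehog co-receptor, Gcnt4, a glycosyltransferase, Bmp2, a BMP ligand, and Thbs1, an extracellular matrix protein, had differences of −0.20, −0.04, 0.25 and −0.15. The same was true of Airn, a long non-coding RNA, and Zadh2 (−0.03 and −0.07). In each of these 8 the equal-time difference was positive, and it was 1.75 for Tshz1.

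Among genes lower with ATRA at equal times, Otx2, a homeobox gene of pluripotent and forebrain cells, stood at 10.73 and 8.67 with ATRA, against 10.71 and 8.91 with BMS753 one step later and 12.05 to 12.14 in EtOH. At BMS753 24 h it was 11.78. Vrtn stood at 6.82 and 5.61 with ATRA, against 6.97 and 5.77 with BMS753 one step later, and Kcng3, a potassium channel subunit, at 7.25 and 5.98 with ATRA, against 7.42 and 6.25 with BMS753. Trap1a, Glp1r (the GLP-1 receptor gene), Tmod1 (tropomodulin), Ell2 (an elongation factor) and Glrx (glutaredoxin) had one-step-later differences of −0.21, 0.08, −0.14, −0.14 and 0.09. The equal-time differences of these 8 ran from −1.74 to −1.33.

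More pluripotency genes were called lower than higher with ATRA at equal times, and one step later the calls were divided. Of 33 measured, 3 were lower and 4 higher one step later, 21.2% in all, with a median of 0.10. At equal times 11 were lower and 2 higher, with a median of −0.22, beside 3.86% lower and 2.12% higher of all genes. Nanog stood at 8.67 and 5.46 with ATRA, against 8.95 and 7.23 with BMS753 and 8.82 to 8.91 in EtOH, a difference of −1.02 ± 0.26 (limma adjusted p = 0.0462). Sall4 differed by −0.38 ± 0.06 and Lin28a by −0.30 ± 0.07. Higher were the de novo DNA methyltransferase gene Dnmt3a (0.82 ± 0.08), Klf4 (0.48), Lefty2 (0.44) and Nr0b1. Pou5f1 stood at 12.41 and 8.63 with ATRA, against 11.44 and 8.88 with BMS753 and 12.85 to 12.99 in EtOH, and did not pass the test (0.36, limma adjusted p = 0.35). Utf1, Dnmt3b and Tdgf1 were called lower at equal times (−2.52, −1.49 and −2.96) and did not pass one step later (−0.64, −0.25 and −0.15). The count of 3 lower was 1 whichever EtOH array was left out and 10 without the first pair, and that of 4 higher was 11 without the second pair. Nanog and Lin28a lost their calls whichever EtOH array was left out, or without the second pair, and Lefty2 without the first pair. With no pair term every one-step-later pluripotency call named here was lost.

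A small set of genes changed sides. Of the 37 called in both comparisons with opposite signs, 25 were lower with ATRA at equal times and higher one step later. Epithelial genes were among the largest: Cdh1, which encodes E-cadherin, stood at 10.81 and 9.73 with ATRA, against 10.14 and 8.59 with BMS753 one step later and 11.12 to 11.21 in EtOH. Its level at BMS753 24 h was 11.04, so the difference was −0.32 at equal times and 0.90 ± 0.09 one step later. Epcam, an epithelial adhesion protein, differed by 0.74 one step later and Esrp1, an epithelial splicing regulator, by 0.73. Chchd10 and Fabp3, a fatty acid carrier, differed by 0.76 and 0.96. Nr0b1, which encodes the nuclear receptor DAX1, stood at 11.45 and 6.77 with ATRA, against 8.85 and 6.36 with BMS753 and 10.66 to 10.81 in EtOH, and its difference of 1.51 ± 0.37 held pairs of 2.60 and 0.41.

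The other 12 were higher with ATRA at equal times and lower one step later. Kitl, the ligand of the KIT receptor, stood at 5.42 and 7.73 with ATRA, against 7.18 and 8.81 with BMS753 one step later and 4.77 to 4.83 in EtOH, a difference of −1.42 ± 0.13 (limma adjusted p = 5.53e-04). At BMS753 24 h Kitl was 4.97. Ptn, which encodes the growth factor pleiotrophin, differed by −1.29 ± 0.26, Rbms3, an RNA-binding protein, by −0.80, Alcam, an adhesion molecule, by −0.75, Ildr2 by −0.71 and Serpinf1, a secreted serpin, by −0.62. The calls of Nr0b1 and Alcam were lost whichever EtOH array was left out, and that of Alcam also without the first pair.

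Genes of FGF signalling, a growth factor pathway that Sprouty proteins feed back on, had 5 lower and 0 higher of 20. That is 25.0% in all beside 7.79% of all genes, with a median of −0.16. Fgf15, a ligand, stood at 8.67 and 6.87 with ATRA, against 9.85 and 8.14 with BMS753 and 10.28 to 10.45 in EtOH, so both agents were below EtOH and ATRA further. The difference was −1.22 ± 0.07 (limma adjusted p = 4.73e-05), against −2.46 at equal times. Fgfr3, a receptor, differed by −1.09 ± 0.19, and Spry4 and Spry2, feedback inhibitors, by −0.59 and −0.53, and Fgf10 by −0.54. Of 32 cell cycle genes, 4 were lower and 1 higher, 15.6% in all. Mycn differed by −1.08, Ccnd1, the cyclin D1 gene, by −1.02, Myc by −0.64, Cdk6 by −0.56 and Ccnb2 by 0.18. Ccnd1, Cdk6 and Fgf10 lost their calls whichever EtOH array was left out, and Ccnb2 without EtOH replicate 1, 3 or 4. Fgf10 and Ccnb2 lost theirs without the first pair. With no pair term every FGF and cell cycle call named here was lost, that of Fgf15 among them.

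Target genes of ATF4, the transcription factor of amino acid shortage, were called lower with ATRA in 9 of 19 at equal times and in 0 of 19 one step later (limma), with medians of −0.43 and −0.39. The pairs went different ways. Without the first pair all 19 were lower with ATRA, and without the second 11 were higher. Slc7a11, the cystine transporter gene, stood at 10.32 and 7.50 with ATRA, against 10.04 and 9.96 with BMS753 and 11.38 to 11.56 in EtOH. Of 19 cholesterol synthesis genes, 3 were lower (Mvd, Pmvk and Hmgcs1, by −0.35, −0.27 and −0.25) and 0 higher, 15.8% in all beside 7.79% of all genes. Pmvk and Hmgcs1 lost their calls whichever EtOH array was left out and Mvd without EtOH replicate 1, 3 or 4. Without the first pair that of Hmgcs1 was lost, and without the second those of Mvd and Pmvk. The count of 3 lower was 7 with the dimmest genes left out, 5 with robust moderation and 1 after quantile normalization again.

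Markers of other cell types gave calls in both directions. Of 48 neuron genes, 6 were higher and 2 lower, 16.7% in all beside 7.79% of all genes. Besides Ebf1, those higher were Dcx, a microtubule protein of young neurons (0.80), Dpysl3 (0.54), Gap43, a growth cone protein (0.51), Nefh (0.43) and Chga (0.33), and those lower were Lhx2 (−0.89) and Stmn2 (−0.63). Of 31 endoderm genes, 4 were higher and 3 lower, 22.6% in all. Foxa1, an endoderm and floor plate factor, stood at 8.82 and 9.72 with ATRA, against 7.51 and 8.78 with BMS753 and 5.68 to 6.03 in EtOH, a difference of 1.13 ± 0.13 (limma adjusted p = 0.00135). Cldn6, a tight junction protein, was higher by 1.14, Epcam by 0.74 and Gata6 by 0.58, and Lrp2 (−0.98), Cxcr4 (−0.67) and Sparc (−0.23) were lower. Of 29 mesoderm and cardiac genes 1 was higher (Foxc1, 0.42), 3.45% in all. Of 25 fibroblast, smooth muscle and matrix genes 2 were lower (Cdh11 and Zeb2, −0.44) and 1 higher, 12.0% in all. The gene higher was Cdh1, an epithelial cadherin gene that the list also held and no marker of these cells. Dcx, Stmn2 and Gata6 lost their calls whichever EtOH array was left out, Chga and Gap43 without EtOH replicate 3 or 4, Sparc without 1, 3 or 4 and Foxc1 without 1, 2 or 3. Stmn2, Gata6 and Sparc lost theirs without the first pair, and Dcx, Chga and Foxc1 without the second.

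**Figure D5:**
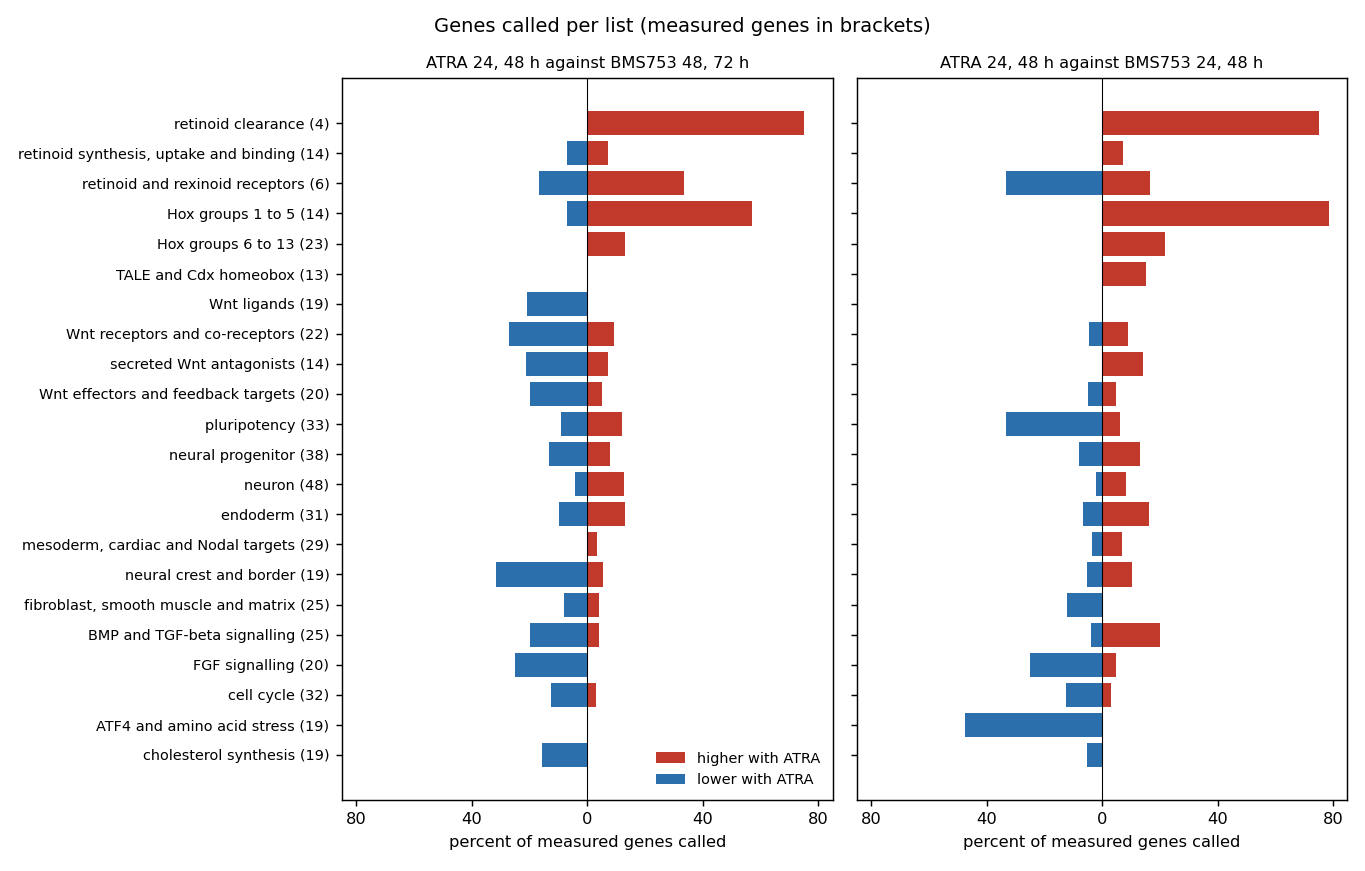
Percent of the measured genes of each of 22 lists called higher (right, red) and lower (left, blue) with ATRA, against BMS753 one step later (left panel) and at equal times (right panel), with the number measured in brackets. Of 14 genes of Hox groups 1 to 5, 8 are higher one step later and 11 at equal times, and of 19 Wnt ligand genes 4 are lower one step later and 0 at equal times.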

How the data were processed

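The deposited values were log2 intensities per probe set of 24 arrays, and Affymetrix Expression Console 1.1 is named in the submitters' processing notes. How background and arrays were adjusted was not given in the sources used here. The log2 scale was read from the span of values, 2.859 to 14.303, and array medians lay between 6.502 and 6.677. Of 35556 probe sets, 21789 had 1 gene symbol, 1621 several and 12146 were not named here. The probe set with the highest mean stood for each of 999 genes with several, which left 19938 genes, with no filter on dim ones. The number of arrays limits the precision.

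Each comparison used 8 arrays in limma 3.58.1 (lmFit, eBayes with trend) under R 4.3.3, with means for EtOH and each agent and a sum-to-zero term for the pair, which left 4 residual degrees of freedom. Tests were two-sided and adjusted over all genes. BMS753 72 h against 24 h, and the difference between pairs (treat, 2-fold), used the spread of EtOH arrays alone, so a lone array is assumed to vary as they do. The script was tested on simulated data. SE is the standard error of the fit.

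Named genes were the 15 largest called differences each way with both pairs at least 2-fold, the 8 largest each way that closed, the 6 largest each way with opposite signs, 4 markers (Frzb, Dkk1, Hoxb5, Cyp26b1) and members of 22 lists (506 genes, 487 measured), passing over predicted transcripts and small RNAs. The comparison, members and lists were chosen with earlier results of these data known. Other agents entered only the alternative fit of all 24 arrays, and F9 cells were not analysed here.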

Additional observations from a re-analysis of the deposited data

Results flagged for a closer look

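Among 154 genes examined, 8 had a difference between ATRA and BMS753 that itself differed between the 2 pairs by more than 2-fold (limma treat, spread of the EtOH arrays, 1 array per agent and time). The first pair's difference minus the second's was 2.79 for Tfap2b (adjusted p = 1.27e-04), 2.73 for Slc7a11 (adjusted p = 1.97e-06), 2.19 for Nr0b1 (adjusted p = 1.27e-04), 1.96 for Utf1 (adjusted p = 3.48e-04) and 1.93 for Mme (adjusted p = 0.00319). It was −2.69 for Pax6 (adjusted p = 3.53e-04), −2.15 for Wnt1 (adjusted p = 0.00216) and −2.08 for Fst (adjusted p = 0.00965). For these genes the mean over the pairs describes neither pair well.

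Single EtOH arrays stood apart from the other 3 in 5 of the 154 genes. By chance such a flag falls on about 5% of genes. The values were 6.13 for Ephx2 and 5.55 for Fgf10 in EtOH replicate 2, 7.55 for Hoxb9 in EtOH replicate 1, and 7.74 for P3h2 and 9.11 for Rarg in EtOH replicate 4.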

How the results depend on the processing

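The number of genes called one step later (1553), at equal times (1193) and in both with the same sign (377) depended on how the spread was estimated. It was 3293, 3420 and 1372 in a fit of all 24 arrays, 3856, 4432 and 1935 when EtOH arrays alone gave the spread, 85, 6 and 3 with no pair term, and 0, 0 and 0 with only the 4 arrays, which have 1 residual degree of freedom. Of 154 genes examined singly, 122 were called one step later, and all 122 lost that call with only the 4 arrays. With no pair term 106 of the 122 lost it. Requiring a 2-fold difference left 134. Leaving out 1 EtOH array or 1 pair gave 847 to 2831, 348 to 4503 and 95 to 1986. Without the dimmest genes, with quantile normalization again, the mean of probe sets, robust moderation or no intensity trend, the counts one step later ran from 1451 to 1763. BMS753 72 h against 24 h gave 4836 to 6143 genes and the difference between the pairs 66 to 105 without single EtOH arrays. The nearest BMS753 time to each ATRA array was the same in the 3 alternatives that bear on it. Several genes not called had pairs of opposite sign, so their values differed in sign without the second and without the first pair, among them Meis3 (−0.50 and 0.36), Stra6 (−0.75 and 0.57), Pou5f1 (0.97 and −0.26), Slc7a11 (0.28 and −2.45), Tdgf1 (0.47 and −0.77) and Utf1 (0.34 and −1.62). No called gene named in the text changed sign.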
